A study of Mus musculus with 15 samples.

Results

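TerminaTOR is a genetically encoded inhibitor of mTORC1, and fused to histone H2A it acts in the nucleus. Its effect on RNA was followed in mouse NIH3T3 cells, a long-established fibroblast line, while translation was blocked with cycloheximide and the cells were given platelet-derived growth factor (PDGF). Libraries were taken by their labels: 3 from H2A-TerminaTOR cells with cycloheximide and PDGF, and 3 from H2A-mCherry cells with the same treatment, 6 of the 15 libraries of the series. H2A-mCherry carries a fluorescent protein in place of the inhibitor and is the control. Both fusions are induced with doxycycline in stable lines, and all cells were starved before PDGF. The other 9 libraries come from H2A-mCherry cells without PDGF, with PDGF alone, and with rapamycin and PDGF, 3 of each, and rapamycin inhibits mTORC1 in the whole cell. The sources used here do not give doses or times, nor say whether the lines are clones or the replicates separate cultures. P-values therefore measure the spread among these libraries, which may be technical. The 2 groups compared are separate lines, so an effect of the inhibitor and a difference between the lines cannot be told apart, and the level of TerminaTOR itself was not measured. No TerminaTOR library was without PDGF or without cycloheximide, so the PDGF response of that line was not measured. A difference in level before PDGF and a difference in the response to it cannot be told apart.

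As background, mTORC1 is a kinase complex that growth factors and amino acids activate, mostly at the lysosome. It raises protein, lipid and nucleotide synthesis and ribosome production, and restrains autophagy, in part through transcription factors such as SREBP, ATF4, HIF1 and TFEB. A share of mTORC1 activity is found in the nucleus. Growth factors also induce immediate early genes, whose transcription needs no new protein and whose short-lived RNAs build up when translation is blocked.

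The 6 libraries held 3466202 to 6777780 counts, with TerminaTOR replicate 3 the shallowest. Mitochondrial genes took 6.28% to 6.64% of counts in the mCherry libraries and 6.32% to 6.63% in the TerminaTOR libraries. Correlations of log2 CPM, the reads of a gene scaled to the size of its library, were 0.977 to 0.983 within the groups and 0.970 to 0.978 between them. The fibroblast label was met by its markers, 10 of 12 of which were over 1 CPM, and of 10 macrophage markers 5 (*Cd14*, *Cd68*, *Fcgr1*, *Lyz2* and *Mrc1*) were over 1 CPM, while *Adgre1*, *Itgam* and *Tyrobp* had no read. The summed macrophage markers ran from 64.5 to 78.4 CPM in the mCherry and from 62.1 to 72.9 CPM in the TerminaTOR libraries. The summed fibroblast markers ran from 7589.8 to 7937 CPM in the mCherry and from 8628 to 9160.1 CPM in the TerminaTOR libraries, and the part of either list in the results below was not tested. These are bulk libraries, so fewer cells of a kind and less RNA per cell cannot be told apart. Each gene's count is a sum over its annotated transcripts. For 13.4% of the genes tested the transcript with most reads was one annotated as retaining an intron, so that levels of different genes are not compared. A change on such a transcript was not shown to be one of the gene's coding RNA.

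TerminaTOR cells differed from control cells in a small share of genes, and most differences were modest. Of 10603 genes tested, 522 (4.92%) were called by edgeR's quasi-likelihood test at a Benjamini-Hochberg adjusted p under 0.05, 249 higher (2.35%) and 273 lower (2.57%). The median fold of the called genes was 1.31, and 50 of them changed at least 2-fold, 20 higher and 30 lower. In 513 of the 522 the 3 TerminaTOR libraries did not overlap the 3 mCherry libraries, which also held for 23.7% of all genes tested. The median log2 change over all genes was 0.00057. Scaling by library size alone, which moved that median by 0.03, called 321 higher and 210 lower, so that 60.5% of calls were higher in place of 47.7%. Fewer genes were called when any 1 of the 6 libraries was left out, and none of the 522 changed sign. The counts were 308, 351 and 319 without TerminaTOR replicate 1, 2 and 3, and 340, 367 and 320 without mCherry replicate 1, 2 and 3. With the 6 libraries fitted alone, 804 of 9171 were called. Rapamycin, in other libraries and without cycloheximide, called 3430 genes (32.3%) with a median fold of 1.70.

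**Figure D1:**
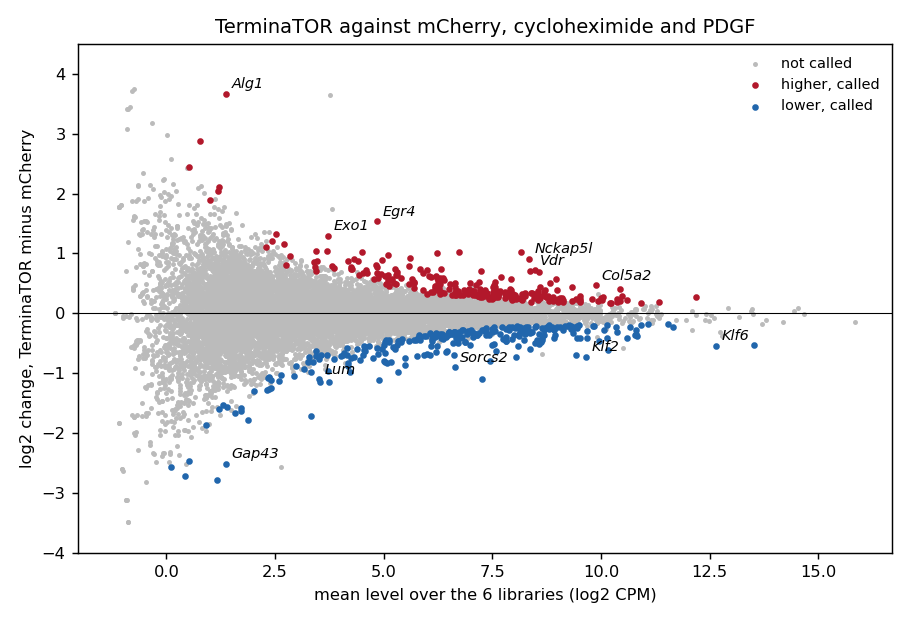
Log2 change between TerminaTOR and mCherry cells (vertical axis) against the mean level over the 6 libraries in log2 CPM (horizontal axis), with a point per gene tested. The 249 genes called higher are red, the 273 called lower blue and the others grey. *Eya1*, at a fitted log2 change of 9.26, is among the few genes beyond the axis, which are not drawn. Called genes with changes over 2-fold sit mostly at low levels.

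Among the largest rises, *Eya1* (ENSMUSG00000025932.14, chr1:14168954-14310235, GRCm38), a phosphatase and transcriptional coactivator of organ development, had no read in any mCherry library with cycloheximide and 259 reads in the TerminaTOR libraries. These were 122, 97 and 40 reads in the 3 libraries. Against a floor of 3 counts over the mCherry group it was at least 81.9-fold higher (adjusted p = 2.66e-13), while the 95% counting interval of the ratio, which includes the error of both groups, starts at 66.1. Of its reads, 99.6% fell on a transcript annotated as retaining an intron. *Egr4* (chr6:85511121-85513589), an early growth response transcription factor that serum and neuronal activity induce, was at 18.8, 18.7 and 13.4 CPM in the mCherry libraries and at 58.2, 49.1 and 39.4 CPM in the TerminaTOR libraries. All 3 TerminaTOR values lay above the highest mCherry value, and the gene was 2.91-fold higher (log2 1.54 ± 0.21 SE, adjusted p = 1.25e-07). *Exo1*, an exonuclease of DNA repair, was at 8.48, 6.81 and 9.03 CPM in the mCherry libraries and at 20.9, 18.1 and 21.4 CPM in the TerminaTOR libraries, a 2.46-fold rise (adjusted p = 9.79e-05). *Alg1*, a mannosyltransferase of protein glycosylation, had 7 reads in the mCherry and 99 in the TerminaTOR libraries (log2 3.67 ± 0.70, adjusted p = 1.62e-04), 96.2% of them on a retained-intron transcript. *Mafa*, a transcription factor of the MAF family, rose by a log2 change of 1.05 ± 0.24. These 5 stayed called with each of the 6 libraries left out in turn.

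The other 5 of the 10 largest rises each lost their call when at least 1 library was left out. *Snrpd3*, a core spliceosome protein, was at 3.72, 2.77 and 3.46 CPM in the mCherry libraries and at 7.81, 9.83 and 7.63 CPM in the TerminaTOR libraries (log2 1.33 ± 0.32), and its call was lost without TerminaTOR replicate 2 (adjusted p = 0.0513). *Tmem37* (log2 2.11 ± 0.61) lost its call without TerminaTOR replicate 1 or 3 or mCherry replicate 2 or 3 (adjusted p from 0.066 to 0.167). *Timm21*, a mitochondrial import factor (log2 2.05 ± 0.61), lost it without any 1 of the 6 libraries (adjusted p from 0.0635 to 0.151). *Siva1*, an apoptosis factor (log2 1.21 ± 0.36, 82.8% of reads on a retained-intron transcript), lost it without TerminaTOR replicate 3 or mCherry replicate 1, 2 or 3 (adjusted p from 0.0573 to 0.302). The kinase gene *Prkcd* (log2 1.12 ± 0.33) lost it without TerminaTOR replicate 1, 2 or 3 or mCherry replicate 2 or 3 (adjusted p from 0.0509 to 0.24). *Nubp1*, a factor of iron-sulfur protein assembly, had 13 reads against 0, at least 4.11-fold more against that floor (the counting interval starts at 2.89). Of these reads 100% fell on a retained-intron transcript, and the call was lost without any 1 of the 6 libraries (adjusted p from 0.0536 to 0.173).

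Among the largest falls, *Gap43*, a growth-cone protein of neurons, was at 6.20, 4.79 and 3.65 CPM in the mCherry libraries and at 0.312, 1.18 and 1.22 CPM in the TerminaTOR libraries. These were 68 against 12 reads, with no overlap between the groups, and the log2 change was -2.51 ± 0.54 (adjusted p = 0.00132). *Fancc*, of the Fanconi anaemia DNA repair pathway, was at 7.45, 6.56 and 5.57 CPM in the mCherry libraries and at 1.41, 3.34 and 0.610 CPM in the TerminaTOR libraries (log2 -1.78 ± 0.40). *Pgs1*, which makes a precursor of cardiolipin, had 96.6% of its reads on a retained-intron transcript. It fell by a log2 change of -1.15 ± 0.21 to 8.27, 11.8 and 6.10 CPM, from 20.9, 21.9 and 16.9 CPM. These 3 stayed called with each library left out. The mitochondrial genes *Immt*, of the inner membrane's cristae (log2 -1.59 ± 0.45), and *Ndufb5*, of complex I (log2 -1.52 ± 0.45), lost their calls without TerminaTOR replicate 1 or 2 or mCherry replicate 1 or 3 (adjusted p from 0.0508 to 0.16) and without TerminaTOR replicate 1, 2 or 3 or mCherry replicate 3 (adjusted p from 0.0504 to 0.245), respectively. *Rnps1*, a splicing factor (log2 -1.66 ± 0.49), lost its call without TerminaTOR replicate 1 or 2 or mCherry replicate 1 or 2 (adjusted p from 0.0567 to 0.222). *Ftl1*, ferritin light chain (log2 -1.27 ± 0.39), had 152 reads over the 6 libraries, 100% of them on a retained-intron transcript. It lost its call without TerminaTOR replicate 1 or 3 or mCherry replicate 1, 2 or 3 (adjusted p from 0.0581 to 0.236). *Cul4a*, a ubiquitin ligase scaffold (log2 -1.24 ± 0.33, 94.9% of reads on a retained-intron transcript), lost it without TerminaTOR replicate 2 or mCherry replicate 1 (adjusted p from 0.087 to 0.362). The transporter *Abca8b* (log2 -1.12 ± 0.34) lost it without TerminaTOR replicate 1 or 3 or mCherry replicate 1, 2 or 3 (adjusted p from 0.0669 to 0.192), and *Mir453* (log2 -1.63 ± 0.44) without TerminaTOR replicate 1 or 3 or mCherry replicate 2 (adjusted p from 0.0684 to 0.124). Reads at the microRNA gene *Mir453*, 102 over the 6 libraries, came from poly(A)-selected RNA and were not shown to be of the microRNA itself. Of the 50 genes called at least 2-fold, 36.0% had most reads on a retained-intron transcript, against 7.47% of the 522, and their median total was 146.5 reads over the 6 libraries, against 3673.5.

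Of the 12 genes with the smallest adjusted p-values, a set chosen after the values were seen, 10 changed by less than 2-fold. The other two were *Eya1* and the antisense gene *Gm49774* (log2 -1.10 ± 0.09, adjusted p = 9.96e-13), whose reads cannot be told apart from those of the opposite strand. *Nckap5l* (chr15:99422035-99457748), which encodes a protein at centrosomes and microtubules, was at 242, 242 and 227 CPM in the mCherry libraries and at 470.1, 442 and 422 CPM in the TerminaTOR libraries. Every TerminaTOR library was above every mCherry library, and the gene was 1.88-fold higher (log2 0.91 ± 0.07, adjusted p = 1.54e-15). *Vdr*, the vitamin D receptor, was at 269, 271 and 290.0 CPM in the mCherry libraries and at 451, 465 and 456 CPM in the TerminaTOR libraries, 1.65-fold higher (adjusted p = 2.89e-13). *Mxd1*, a MAX partner that opposes MYC, was at 296, 236 and 246 CPM in the mCherry libraries and at 438, 423 and 415 CPM in the TerminaTOR libraries, 1.64-fold higher (adjusted p = 6.47e-11). It was the 1 of 7 tested members of the MYC and MAX network that was called. *Thbd*, the anticoagulant receptor thrombomodulin, was at 403, 402 and 421 CPM in the mCherry libraries and at 621, 585 and 624 CPM in the TerminaTOR libraries, 1.49-fold higher (adjusted p = 1.81e-12). In none of these 4 did the groups overlap.

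Of the genes that fell, *Tcim*, a small regulator of cell growth, was at 828, 937 and 866 CPM in the mCherry libraries and at 553, 564 and 508 CPM in the TerminaTOR libraries, 1.62-fold lower (adjusted p = 2.89e-13). *Sorcs2*, a sorting receptor, was at 128, 134 and 141 CPM in the mCherry libraries and at 66.5, 71.0 and 81.1 CPM in the TerminaTOR libraries, 1.86-fold lower (adjusted p = 1.81e-12). *Sat1*, which acetylates polyamines for breakdown and export, was at 243, 214 and 239.7 CPM in the mCherry libraries and at 135, 149.6 and 114 CPM in the TerminaTOR libraries, 1.74-fold lower (adjusted p = 1.46e-10), with 97.8% of its reads on a retained-intron transcript. *Tcim* and *Sat1* are also PDGF-responsive in the libraries without cycloheximide, where PDGF raised them 16.0-fold and 5.23-fold, whereas *Sorcs2* was at a log2 change of 0.01 ± 0.08 (adjusted p = 0.969).

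**Figure D2:**
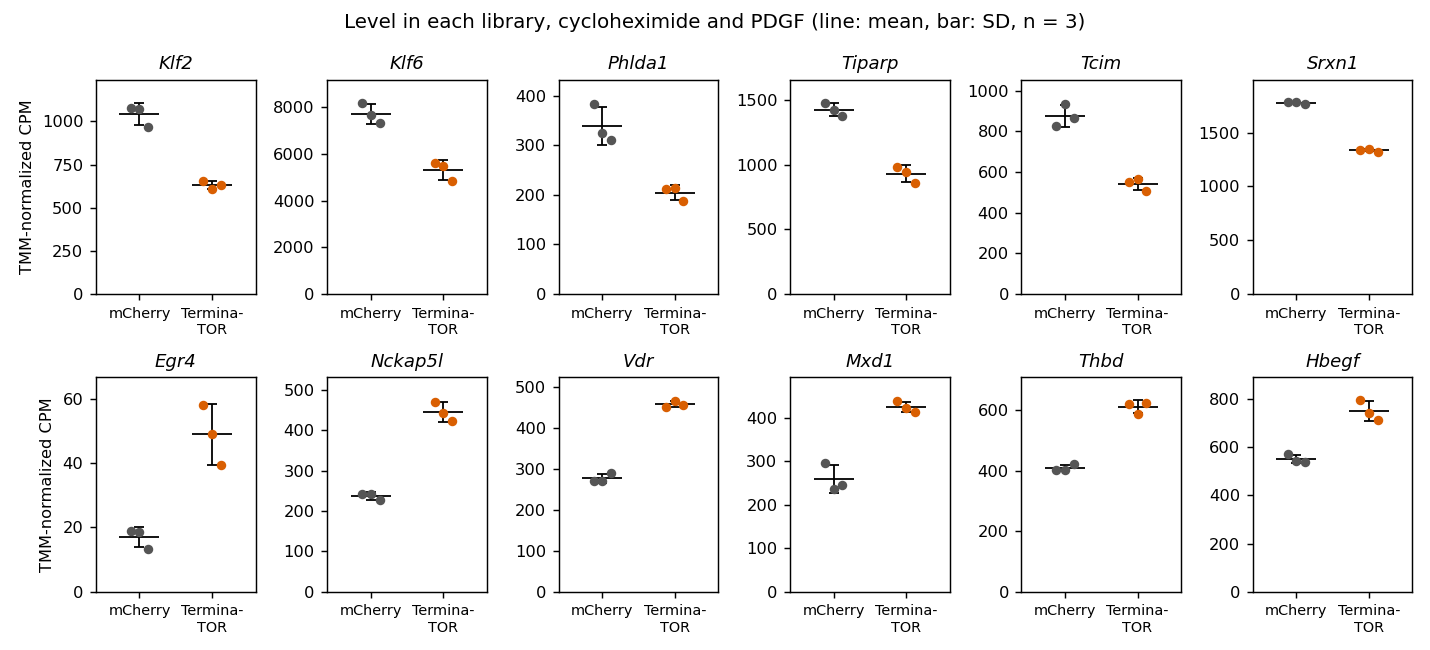
TMM-normalized CPM of 12 genes (vertical axes, from 0) in the 3 mCherry libraries (grey points) and the 3 TerminaTOR libraries (orange points), all with cycloheximide and PDGF, with the mean as a line and the SD as a bar. In each of the 12 genes the groups do not overlap. *Klf2*, *Klf6*, *Phlda1*, *Tiparp*, *Tcim* and *Srxn1* are lower with TerminaTOR and the other 6 higher.

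Immediate early genes were lower where they were called. Of 35 genes listed, 29 passed the filter on low counts and 6 (*Atf3*, *Nr4a3*, *Arc*, *Ctgf*, *Plk3* and *Csrnp1*) did not. Of the 29, 8 fell and none rose, against 2.57% and 2.35% of all genes, and the median log2 change was -0.23, with 25 of 29 below 0. PDGF had raised 27 of the 29 in the libraries without cycloheximide, as it had 20.1% of all genes. The zinc finger transcription factor *Klf2* (chr8:72319033-72321656) was at 1079.8, 1074 and 968 CPM in the mCherry libraries and at 654, 608 and 629.6 CPM in the TerminaTOR libraries. The lowest mCherry library lay well above the highest TerminaTOR library, and *Klf2* was 1.65-fold lower (log2 -0.72 ± 0.06, adjusted p = 2.58e-13). *Phlda1*, a pleckstrin-like protein that restrains growth factor signalling, was at 383, 325 and 311 CPM in the mCherry libraries and at 213, 213 and 188 CPM in the TerminaTOR libraries, 1.66-fold lower (adjusted p = 2.22e-11). *Tiparp*, a mono-ADP-ribosyltransferase that represses the aryl hydrocarbon receptor, was at 1474, 1423 and 1374 CPM in the mCherry libraries and at 985, 945 and 856 CPM in the TerminaTOR libraries, 1.53-fold lower (adjusted p = 3.18e-09). *Klf6* (chr13:5861482-5870394) was at 8184, 7673 and 7315 CPM in the mCherry libraries and at 5622, 5494 and 4840.4 CPM in the TerminaTOR libraries, 1.45-fold lower (adjusted p = 1.21e-09). Groups did not overlap in any of these 4.

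The polo-like kinase gene *Plk2* was at 1363, 1308 and 1247 CPM in the mCherry libraries and at 997, 1035 and 912 CPM in the TerminaTOR libraries (log2 -0.41 ± 0.06), and *Klf4*, a transcription factor, at 798, 911 and 847 CPM in the mCherry libraries and at 638, 643 and 635 CPM in the TerminaTOR libraries (log2 -0.41 ± 0.06). Both fell without overlap between the groups, and with the 4 genes above they stayed called with each library left out in turn. The AP-1 subunit genes *Jund* (log2 -0.23 ± 0.07, adjusted p = 0.0338) and *Fosl2* (-0.17 ± 0.05, adjusted p = 0.0421) changed less. The call for *Jund* was lost without TerminaTOR replicate 2 or 3 or mCherry replicate 1 or 2 (adjusted p from 0.0604 to 0.241), and that for *Fosl2* without TerminaTOR replicate 2 or 3 or mCherry replicate 1, 2 or 3 (adjusted p from 0.0505 to 0.334). Of 14 alternatives 9 ended the call for *Fosl2* and 6 that for *Jund*. The AP-1 genes best known as immediate early were not called in the fit of all libraries, though some were under other settings. *Fos* was at 5382, 4694 and 4501 CPM in the mCherry libraries and at 4284, 4013 and 3695 CPM in the TerminaTOR libraries, without overlap but short of the threshold (log2 -0.28 ± 0.08, adjusted p = 0.0561). *Jun* was at 62224, 63999 and 60013 CPM in the mCherry libraries and at 57597, 56438 and 55014 CPM in the TerminaTOR libraries (log2 -0.14 ± 0.10, adjusted p = 0.538), and *Junb* was at log2 0.07 ± 0.07 (adjusted p = 0.658). *Ier3*, a survival factor, was at 1806, 1831 and 1707 CPM in the mCherry libraries and at 1221, 1234 and 1106 CPM in the TerminaTOR libraries, again without overlap (log2 -0.58 ± 0.15, adjusted p = 0.0505). With the 6 libraries fitted alone the adjusted p was 0.0282 for *Fos*, 0.00733 for *Jun*, 0.306 for *Junb* and 3.46e-11 for *Ier3*. With limma-voom it was 6.65e-05, 1.37e-06, 0.0298 and 1.18e-09, in that order. DESeq2 called *Ier3* (adjusted p = 0.0394) and none of the other 3 (adjusted p from 0.106 to 0.619). *Egr1* had few reads, 149 against 96 (log2 -0.70 ± 0.36, adjusted p = 0.334), and *Egr3* was at log2 -0.23 ± 0.10 (adjusted p = 0.203). *Egr4*, which is not on the list, rose. With the 6 libraries alone in the fit, or with limma-voom, 14 of the 29 were called lower, and limma-voom called 1 higher.

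The same list moved both ways with rapamycin, 12 higher and 7 lower of the 29 (16.3% and 16.1% of all genes), in a comparison that shares no library with this one. *Klf2* was at 0.20 ± 0.08 with rapamycin (adjusted p = 0.0543), *Phlda1* rose by 0.71 ± 0.08, *Tiparp* rose by 1.06 ± 0.07 and *Plk2* by 0.42 ± 0.06, on the log2 scale. *Klf4* (-0.86 ± 0.06) and *Jund* (-1.08 ± 0.08) fell with rapamycin as with TerminaTOR. For each of the 8 genes that fell with TerminaTOR, the test of the difference between the 2 effects passed the threshold, as it did for 63.7% of all genes that fell with TerminaTOR and for 24.0% of all genes tested. The 8 genes were picked by their TerminaTOR change, which enters the difference, so a passed test was favoured in advance. The test gave a difference of -1.68 ± 0.10 for *Tiparp* (adjusted p = 1.80e-19) and -0.92 ± 0.10 for *Klf2* (adjusted p = 2.81e-11). *Klf4* and *Jund* fell more with rapamycin than with TerminaTOR, so their differences lay in the other direction. The rapamycin comparison was made without cycloheximide and in the control line, so the tested difference covers those conditions as well.

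**Figure D3:**
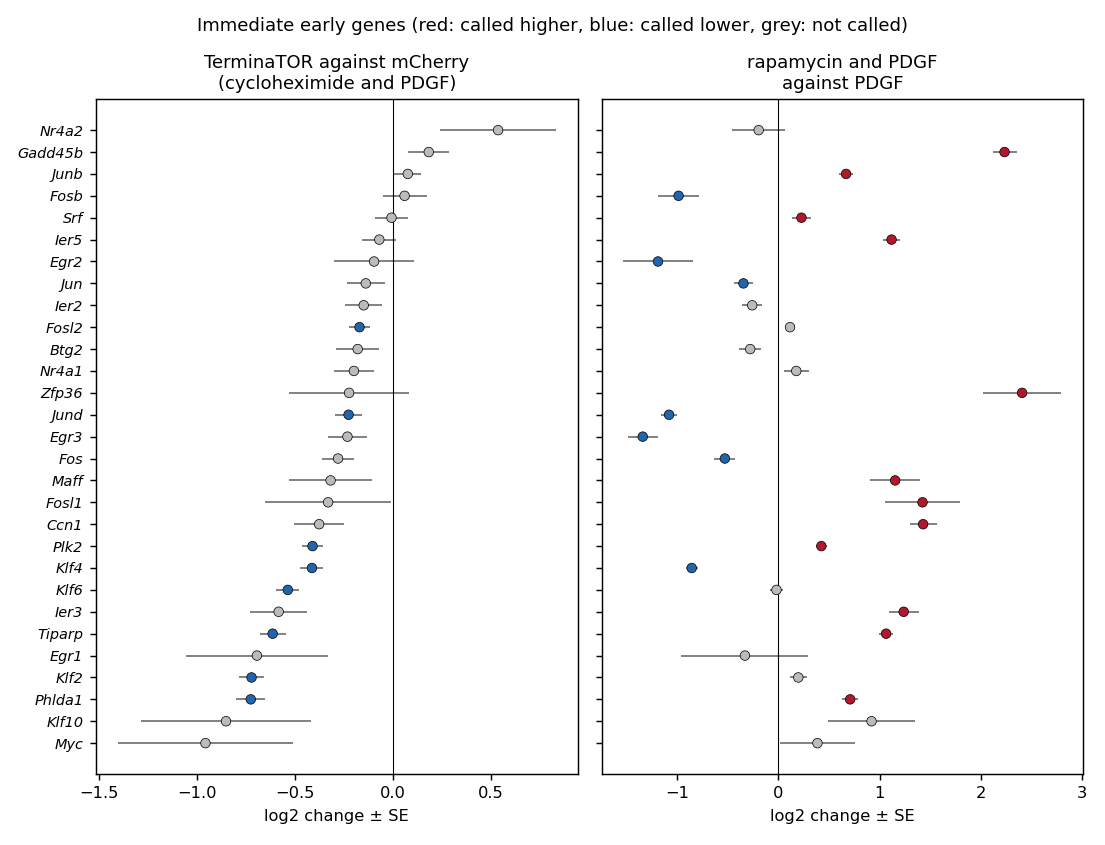
Log2 change ± SE (horizontal axes) of the 29 immediate early genes tested, ordered by the change with TerminaTOR, for TerminaTOR against mCherry (left, both with cycloheximide and PDGF) and for rapamycin and PDGF against PDGF (right, a wider axis). Red points were called higher, blue points lower and grey points were not called. Of the called genes on the left 8 are lower and none higher, and on the right 7 are lower and 12 higher.

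*Klf2*, *Klf4* and *Klf6* belong to the Krüppel-like factors, transcription factors that bind GC-rich promoter sequences. Of the 12 members of the family tested, a set chosen after the values were seen, 5 fell and 1 rose, against 2.57% and 2.35% of all genes. PDGF had raised 9 of the 12, as it had 20.1% of all genes. Outside the immediate early list, 2 of 8 members fell and 1 rose, with a median log2 change of -0.13. *Klf7* was at 506, 440.5 and 448 CPM in the mCherry libraries and at 340.2, 365 and 322 CPM in the TerminaTOR libraries (log2 -0.44 ± 0.07, adjusted p = 1.80e-06). *Klf13* was at 280.5, 268 and 250.5 CPM in the mCherry libraries and at 183, 212 and 184 CPM in the TerminaTOR libraries (log2 -0.46 ± 0.07, adjusted p = 3.36e-06). *Klf5* went the other way, at 78.0, 88.7 and 88.0 CPM in the mCherry libraries and at 117, 115 and 114 CPM in the TerminaTOR libraries (log2 0.45 ± 0.08, adjusted p = 8.60e-05), and groups overlapped in none of the 3. *Klf9*, which PDGF raised by 1.91 ± 0.08, was at -0.01 ± 0.07 (adjusted p = 0.971).

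The promoters of *Klf2* and *Klf6*, which fell, and of *Egr4* and *Nckap5l*, which rose, are shown so that strongly called genes of each direction can be compared base by base. Each is the 250 bases before the RefSeq start on GRCm38.p6, read 5′ to 3′ on the strand of the gene: *Klf2* chr8:72318812-72319061 (+), *Klf6* chr13:5861239-5861488 (+), *Egr4* chr6:85513590-85513839 (-) and *Nckap5l* chr15:99457749-99457998 (-). Capitals mark matches, on either strand, to GGGCGG (bound by SP and KLF factors), CCAAT (bound by NF-Y) or CACGTG (the E-box bound by MYC and TFEB), and none of the 4 holds a CArG box (bound by SRF), TGACGTCA (CREB and ATF) or TGACTCA (AP-1).
*Klf2*: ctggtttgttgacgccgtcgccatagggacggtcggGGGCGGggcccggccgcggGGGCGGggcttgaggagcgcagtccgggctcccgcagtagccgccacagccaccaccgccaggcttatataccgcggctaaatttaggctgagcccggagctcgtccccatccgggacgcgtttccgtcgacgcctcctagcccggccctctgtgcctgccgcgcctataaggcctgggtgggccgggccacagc
*Klf6*: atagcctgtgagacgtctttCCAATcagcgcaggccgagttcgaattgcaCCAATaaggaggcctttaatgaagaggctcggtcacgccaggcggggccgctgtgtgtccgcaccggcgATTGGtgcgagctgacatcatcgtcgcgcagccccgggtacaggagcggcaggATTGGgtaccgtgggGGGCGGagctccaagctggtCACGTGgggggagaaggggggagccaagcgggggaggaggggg
*Egr4*: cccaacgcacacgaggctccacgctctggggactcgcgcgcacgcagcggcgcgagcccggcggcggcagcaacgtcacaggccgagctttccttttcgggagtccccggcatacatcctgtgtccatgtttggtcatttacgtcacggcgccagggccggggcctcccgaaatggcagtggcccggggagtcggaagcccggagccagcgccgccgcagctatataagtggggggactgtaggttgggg
*Nckap5l*: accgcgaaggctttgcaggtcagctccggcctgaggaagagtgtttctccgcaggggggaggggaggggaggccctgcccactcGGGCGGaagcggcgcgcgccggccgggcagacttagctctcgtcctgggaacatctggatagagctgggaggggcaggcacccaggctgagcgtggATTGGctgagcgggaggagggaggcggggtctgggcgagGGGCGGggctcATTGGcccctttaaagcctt

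*Klf2* had 2 matches to GGGCGG, *Klf6* had 4 to CCAAT, 1 to GGGCGG and 1 to CACGTG, *Nckap5l* had 2 to CCAAT and 2 to GGGCGG, and *Egr4* had none. Promoters in the table were found for 199 of the 249 genes that rose (221 promoters) and 194 of the 273 that fell (236 promoters). CCAAT stood in 49.8% of the promoters of genes that rose, 36.0% of those that fell, 35.2% of the 8513 of all genes tested and 33.9% of all 32851 in the table. GGGCGG stood in 74.2%, 61.9%, 58.1% and 32.7%, respectively, CACGTG in 7.69%, 11.4%, 8.46% and 6.02%, and a CArG box in 1.36%, 2.12%, 1.17% and 1.47%. Among immediate early genes, a CArG box stood in 6 of the 28 promoters of the tested members (21.4%) and in 0 of the 7 promoters of those that fell. TGACGTCA stood in 3.62%, 3.81%, 2.80% and 1.55%, and TGACTCA in 2.71%, 4.24%, 3.29% and 4.46%. A match is a description of the sequence, not a site. The called genes also had more reads than the genes tested, and no test of these shares was made.

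Other genes of the growth factor response differed in both directions between the 2 lines. Of 12 MAPK feedback inhibitors tested, 2 fell and none rose (median log2 -0.09), against 2.57% and 2.35% of all genes. *Spry2*, an inhibitor of receptor tyrosine kinase signalling, was at 847, 811 and 776 CPM in the mCherry libraries and at 649, 607 and 562 CPM in the TerminaTOR libraries, 1.34-fold lower (adjusted p = 4.04e-07). The phosphatase gene *Dusp8* was at log2 -0.22 ± 0.07 (adjusted p = 0.0453), a call lost without TerminaTOR replicate 1 or 3 or mCherry replicate 1, 2 or 3 (adjusted p from 0.0574 to 0.325). Of 14 alternatives 10 ended the *Dusp8* call, DESeq2 among them. Of 24 cytokine and NF-kB target genes, 23 of which rapamycin raised (16.3% of all genes), 2 rose with TerminaTOR and 2 fell (median -0.10). *Hbegf*, an EGF receptor ligand, was at 569, 543 and 540.1 CPM in the mCherry libraries and at 795, 743 and 711 CPM in the TerminaTOR libraries, 1.36-fold higher (adjusted p = 1.70e-07). The chemokine gene *Ccl7* (log2 0.26 ± 0.07) rose, a call lost without TerminaTOR replicate 1 or 2 or mCherry replicate 1, 2 or 3 (adjusted p from 0.0528 to 0.179). The adhesion molecule gene *Vcam1* (log2 -0.23 ± 0.07) fell, a call lost without TerminaTOR replicate 1 or 3 or mCherry replicate 1 or 3 (adjusted p from 0.0676 to 0.137), and so did *Csf1* (log2 -0.71 ± 0.22), a call lost without TerminaTOR replicate 1 or 2 or mCherry replicate 1 or 3 (adjusted p from 0.103 to 0.242). The *Csf1* call was also lost with limma-voom, library-size scaling and transcripts as deposited, and its log2 change ran from -0.81 to -0.09 over the alternatives. With rapamycin *Ccl7* and *Vcam1* rose by 2.72 ± 0.08 and 2.93 ± 0.07.

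Over all genes, the 964 that PDGF raised at least 2-fold in the libraries without cycloheximide included 69 (7.16%) that fell with TerminaTOR and 37 (3.84%) that rose, with a median log2 change of -0.06. The 661 that PDGF lowered at least 2-fold included 11 that fell (1.66%) and 12 that rose (1.82%), with a median of 0.02. As a share of the calls, the genes raised at least 2-fold made up 25.3% of those that fell and 14.9% of those that rose. They were 964 of the 10603 genes tested, a smaller share than either. Among the 333 genes that PDGF raised at least 4-fold, 25 fell (7.51%) and 9 rose (2.70%), with a median of -0.10. The genes raised at least 2-fold had a median of 299.5 reads over the 6 libraries, against 269 for all genes tested. The median was lower, at 155, for those lowered at least 2-fold, and 145 for those raised at least 4-fold. All 2128 genes that PDGF raised, by any fold, had a median of 1278.5 reads, and 106 of them rose and 124 fell. *Srxn1*, sulfiredoxin, an antioxidant enzyme induced by AP-1 and NRF2, is an example. It was at 1785, 1785 and 1771 CPM in the mCherry libraries and at 1342, 1348 and 1324 CPM in the TerminaTOR libraries, 1.33-fold lower (adjusted p = 8.48e-08). The 3 libraries of each group lay close together and did not overlap. It was 1 of 2 members called among 13 NRF2 targets (none rose), with *Ftl1* above. Over all genes, 2.57% fell and 2.35% rose.

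Few genes of the mTORC1 pathway itself were called. Over all genes, 2.35% were called higher and 2.57% lower. None of the 5 tested of 7 mTORC1 subunits and inhibitors was called by edgeR, DESeq2 or limma-voom. Of the 5, 0 had an unadjusted p under 0.05, beside 1739 of all 10603 genes. *Mtor*, the kinase, was at 171, 174 and 165 CPM in the mCherry libraries and at 179, 169 and 181 CPM in the TerminaTOR libraries (log2 0.05 ± 0.08, adjusted p = 0.811). *Rptor*, the raptor subunit, had 41 reads against 45 (log2 0.05 ± 0.46), and the inhibitor gene *Deptor* was at -0.12 ± 0.22 (adjusted p = 0.85). *Akt1s1* (-0.57 ± 0.62) and *Telo2* (-2.29 ± 1.29) had too few reads for a narrow estimate. Of 13 genes of the TSC complex, RHEB and growth factor input, *Irs2*, an insulin receptor adaptor, rose and none fell. It was at 929, 950.2 and 922 CPM in the mCherry libraries and at 1116, 1136 and 1090.2 CPM in the TerminaTOR libraries (log2 0.26 ± 0.06, adjusted p = 0.00206). Of 18 genes of nutrient sensing by Rag GTPases, *Sesn2*, a leucine sensor, rose (log2 0.21 ± 0.06) and none fell. Its call was lost without TerminaTOR replicate 1, 2 or 3 or mCherry replicate 1 or 3 (adjusted p from 0.0595 to 0.145).

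Of 12 mTORC1 substrates and translation regulators, 2 rose and 1 fell, against 2.35% and 2.57% of all genes. *Ulk1*, the kinase that starts autophagy and that mTORC1 restrains, was at 162, 159 and 148 CPM in the mCherry libraries and at 211, 201 and 225 CPM in the TerminaTOR libraries, 1.36-fold higher (adjusted p = 1.19e-04). *Eif4ebp2*, a repressor of cap-dependent translation, was at 417, 442 and 432 CPM in the mCherry libraries and at 514, 514 and 529.9 CPM in the TerminaTOR libraries, 1.21-fold higher (adjusted p = 0.00137). No TerminaTOR value of either gene fell within the mCherry range. *Tfe3*, a regulator of lysosomal genes, fell (log2 -0.58 ± 0.16), a call lost without TerminaTOR replicate 1 or 3 or mCherry replicate 1 (adjusted p from 0.0595 to 0.121). Of 27 autophagy genes 4 rose and 1 fell (median 0.16), against 2.35% and 2.57% of all genes. Besides *Ulk1*, *Atg101*, a partner in the ULK1 complex, was at 59.2, 62.0 and 55.9 CPM in the mCherry libraries and at 90.7, 86.5 and 95.2 CPM in the TerminaTOR libraries, 1.54-fold higher (adjusted p = 1.44e-04). *Map1lc3b*, whose protein coats autophagosomes, rose (log2 0.57 ± 0.14, 70.2% of reads on a retained-intron transcript), a call lost without mCherry replicate 1 (adjusted p = 0.0988). *Wipi2*, an autophagosome scaffold, rose (log2 0.24 ± 0.06), a call lost without TerminaTOR replicate 2 or mCherry replicate 3 (adjusted p from 0.0529 to 0.0673). The cargo receptor *Sqstm1* fell (log2 -0.59 ± 0.18), a call lost without TerminaTOR replicate 1 or 3 or mCherry replicate 2 or 3 (adjusted p from 0.132 to 0.177). With rapamycin *Ulk1* and *Atg101* fell (-0.33 ± 0.09 and -0.56 ± 0.14).

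Lysosomal genes and TFEB targets were called lower in 5 of 28 and higher in 1 (median -0.14), against 2.57% and 2.35% of all genes. *Ctsb*, the protease cathepsin B, was at 862, 973 and 879.9 CPM in the mCherry libraries and at 721, 748 and 744 CPM in the TerminaTOR libraries (log2 -0.30 ± 0.06, adjusted p = 1.74e-04). *Mcoln1*, the lysosomal calcium channel, was at 23.2, 25.2 and 24.0 CPM in the mCherry libraries and at 13.7, 16.7 and 12.2 CPM in the TerminaTOR libraries (log2 -0.75 ± 0.18, adjusted p = 0.00616), with 94.5% of its reads on a retained-intron transcript. *Npc2*, a lysosomal cholesterol carrier, rose instead, from 59.6, 60.8 and 63.8 to 87.0, 87.9 and 77.8 CPM (log2 0.46 ± 0.10). Groups overlapped in none of the 3. The hydrolase genes *Naglu* and *Hexa* and the glycoprotein gene *Gpnmb* were at log2 -0.44, -0.22 and -0.42. Their calls were lost without TerminaTOR replicate 1 or 2 or mCherry replicate 2 or 3 (adjusted p from 0.0775 to 0.134), without TerminaTOR replicate 1, 2 or 3 or mCherry replicate 2 or 3 (adjusted p from 0.0583 to 0.225), and without TerminaTOR replicate 2 or 3 or mCherry replicate 1 or 2 (adjusted p from 0.0645 to 0.299), in that order.

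Rapamycin lowered 14 of 20 genes of cholesterol synthesis, which SREBP controls, against 16.1% of all genes. With TerminaTOR 3 of the 20 fell and 1 rose (median -0.03), against 2.57% and 2.35% of all genes. *Insig1*, the brake on SREBP processing, was at 2096, 2056 and 2068 CPM in the mCherry libraries and at 1639, 1607 and 1537 CPM in the TerminaTOR libraries, 1.3-fold lower (adjusted p = 3.44e-05). The groups did not overlap, and with rapamycin the gene fell by 2.21 on the log2 scale. *Msmo1* fell (log2 -0.70 ± 0.22), a call lost without any 1 of the 6 libraries (adjusted p from 0.0552 to 0.252), and *Hsd17b7* rose (log2 0.25 ± 0.07), a call lost without TerminaTOR replicate 1, 2 or 3 or mCherry replicate 1 or 2 (adjusted p from 0.0552 to 0.212). Of 13 fatty acid synthesis genes edgeR and DESeq2 called none (smallest edgeR adjusted p = 0.129, 2 at an unadjusted p under 0.05) and limma-voom 1. Over all genes, 1739 of 10603 had an unadjusted edgeR p under 0.05.

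Gene groups that mTORC1 is known for in growth were mostly not called. No member was called among 55 cytosolic ribosomal protein genes (median 0.06), 33 translation factors (median -0.0019), 20 genes of RNA polymerases I and III (0.04), 19 cytosolic tRNA synthetases (0.03), 19 nuclear genes of oxidative phosphorylation (0.19), 18 of glycolysis and HIF1 (0.11), 22 proteasome subunits (-0.05), 14 heat shock chaperones (0.03) and 14 mitochondrially encoded genes (-0.01). *Ndufb5*, of complex I, which was called lower above, is not on the oxidative phosphorylation list. In all, 19 of the 51 lists had no call by edgeR. Of their 265 tested members, 29 had an unadjusted p under 0.05, DESeq2 called 1 and limma-voom 3. Of all 10603 genes tested, 1739 had such a p, DESeq2 called 546 and limma-voom 576. Ribosome biogenesis factors were called higher in 5 of 30 and lower in none, against 2.35% higher and 2.57% lower of all genes (median 0.07). *Ncl*, the nucleolar protein nucleolin, was at 278, 298 and 330.0 CPM in the mCherry libraries and at 372, 381 and 395 CPM in the TerminaTOR libraries, 1.26-fold higher (adjusted p = 5.90e-04), and stayed called with each library left out. The helicase gene *Ddx10* (log2 0.30 ± 0.07) lost its call without TerminaTOR replicate 1 or 2 or mCherry replicate 1 (adjusted p from 0.0545 to 0.1). *Nop14* (0.27 ± 0.08) lost it without TerminaTOR replicate 1 or 3 or mCherry replicate 1 or 2 (adjusted p from 0.0928 to 0.206), and *Bop1* (0.42 ± 0.12) without TerminaTOR replicate 1 or 3 or mCherry replicate 1 (adjusted p from 0.133 to 0.358). *Wdr75* had 5 against 30 reads and lost it without TerminaTOR replicate 2 or mCherry replicate 3 (adjusted p from 0.0537 to 0.0991). Of 12 nucleotide and one-carbon genes, *Ctps*, CTP synthase, fell from 339, 308 and 304 to 257, 246 and 232 CPM (log2 -0.37 ± 0.07, adjusted p = 5.75e-05).

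Histone genes fell where they were called, and both fusions are themselves histone H2A. Of 43 core and linker histone genes tested, 6 fell and none rose, against 2.57% and 2.35% of all genes. Of the 43 changes 34 were below 0, as were 5293 of the 10603 over all genes, and the median was -0.36. *Hist1h1c*, a linker histone, was at 933, 988 and 909 CPM in the mCherry libraries and at 738, 744 and 633 CPM in the TerminaTOR libraries (log2 -0.42 ± 0.07, adjusted p = 5.66e-06). *Hist1h4i*, of histone H4, was at 264, 237 and 219.5 CPM in the mCherry libraries and at 169.9, 163 and 128 CPM in the TerminaTOR libraries, 1.55-fold lower (adjusted p = 1.78e-05), and *Hist1h3d*, of histone H3, at 81.1, 94.3 and 79.9 CPM in the mCherry libraries and at 54.8, 56.0 and 45.5 CPM in the TerminaTOR libraries, 1.62-fold lower. In these 3 the groups did not overlap. *Hist1h1b* (log2 -0.75 ± 0.17) lost its call without TerminaTOR replicate 3 (adjusted p = 0.0513), and *Hist1h1d* (-0.81 ± 0.21) without TerminaTOR replicate 1 or 2 or mCherry replicate 2 (adjusted p from 0.0503 to 0.0716). *Hist1h2ac* (-0.97 ± 0.24), 1 of 10 H2A genes tested, lost it without TerminaTOR replicate 1 or mCherry replicate 1 or 3 (adjusted p from 0.0581 to 0.0853). Histone genes are nearly identical, so reads can be shared among copies, and most replication-dependent histone RNAs have no poly(A) tail, while these libraries were made from poly(A)-selected RNA. All 6 lie on chromosome 13, as do 33 of the 43 tested. Of the 408 other genes of that chromosome, 18 fell and 4 rose (median -0.05).

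Mitosis genes were called higher in 4 of 18 and lower in none (median 0.26), against 2.35% higher and 2.57% lower of all genes. EdgeR called none of 20 G1 and S phase genes, of which 7 had an unadjusted p under 0.05, beside 1739 of all 10603 genes. DESeq2 and limma-voom called 1 of the 20 each. *Top2a*, which untangles chromosomes, was at 177, 216 and 216 CPM in the mCherry libraries and at 249, 249 and 268 CPM in the TerminaTOR libraries (log2 0.33 ± 0.08), a call lost without mCherry replicate 1 (adjusted p = 0.127). The kinetochore genes *Cenpe* (0.26 ± 0.07) and *Cenpf* (0.35 ± 0.10) lost their calls without TerminaTOR replicate 1 or 2 or mCherry replicate 1 or 2 (adjusted p from 0.053 to 0.186) and without TerminaTOR replicate 1 or 3 or mCherry replicate 1 (adjusted p from 0.083 to 0.267). The spindle motor gene *Kif11* (0.24 ± 0.08) lost it without any 1 of the 6 libraries (adjusted p from 0.0618 to 0.336). Rapamycin lowered 11 of the 18 and raised none, against 16.1% and 16.3% of all genes.

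Genes of the endoplasmic reticulum and its stress response were called higher in 4 of 18 and lower in none, against 2.35% higher and 2.57% lower of all genes (median 0.21, with 1 of 18 below 0). *Dnajb9*, a BiP cochaperone, was at 199, 191 and 213 CPM in the mCherry libraries and at 312, 307 and 279 CPM in the TerminaTOR libraries, 1.49-fold higher (adjusted p = 5.48e-08), without overlap. *Atf6*, a stress sensor (log2 0.20 ± 0.06), lost its call without TerminaTOR replicate 1 or 2 or mCherry replicate 1 or 2 (adjusted p from 0.0565 to 0.185). *Dnajc3* (0.24 ± 0.07) lost it without any 1 of the 6 libraries (adjusted p from 0.0786 to 0.13), and *Pdia3* (0.20 ± 0.06) without TerminaTOR replicate 1, 2 or 3 or mCherry replicate 1 or 3 (adjusted p from 0.0789 to 0.347). The list for ATF4 and amino acid starvation had 28 tested genes, of which 2 rose and 2 fell (median 0.03). *Ddit3*, which encodes CHOP, was at 116, 93.5 and 116 CPM in the mCherry libraries and at 69.0, 80.8 and 57.3 CPM in the TerminaTOR libraries, 1.56-fold lower (adjusted p = 8.16e-05), with 86.9% of its reads on a retained-intron transcript. *Trib3*, a CHOP target, was at 312, 384 and 383 CPM in the mCherry libraries and at 256, 299.6 and 314 CPM in the TerminaTOR libraries (log2 -0.32 ± 0.07), a call lost without TerminaTOR replicate 1 (adjusted p = 0.0654). The arginine transporter gene *Slc7a1* rose (log2 0.22 ± 0.06), a call lost without TerminaTOR replicate 2 or 3 or mCherry replicate 1 (adjusted p from 0.122 to 0.266). Of 8 interferon response genes tested, *Ifit1* and *Isg15* rose. *Ifit1* was at 151, 188 and 165 CPM in the mCherry libraries and at 247, 282 and 234 CPM in the TerminaTOR libraries, 1.52-fold higher, and *Isg15* at 22.1, 24.0 and 18.8 CPM in the mCherry libraries and at 37.2, 35.4 and 38.7 CPM in the TerminaTOR libraries, 1.72-fold higher (adjusted p = 1.16e-05 and 0.00226). *Ifit2* fell (log2 -0.36 ± 0.10), a call lost without TerminaTOR replicate 1 or mCherry replicate 2 or 3 (adjusted p from 0.0515 to 0.112).

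Of the matrix genes, collagen chains were among those that rose. Of 24 collagen and matrix genes, 6 rose and 1 fell (median 0.08), against 2.35% and 2.57% of all genes. *Col5a2*, a chain of type V collagen, was at 804, 812 and 801 CPM in the mCherry libraries and at 1117, 1132 and 1111 CPM in the TerminaTOR libraries, 1.39-fold higher (adjusted p = 3.33e-09). *Col1a1*, of type I collagen, was at 4046, 4444 and 4241 CPM in the mCherry libraries and at 4849, 5323 and 5286 CPM in the TerminaTOR libraries, 1.21-fold higher (adjusted p = 9.47e-05). Neither gene's groups overlapped. *Col4a2* (0.24 ± 0.06) lost its call without TerminaTOR replicate 3 (adjusted p = 0.0518), *Col5a1* (0.23 ± 0.05) without TerminaTOR replicate 2 or mCherry replicate 3 (adjusted p from 0.053 to 0.0591), and *Col1a2* (0.19 ± 0.05) without any 1 of the 6 libraries (adjusted p from 0.0546 to 0.148). *Thbs2*, a matricellular glycoprotein (0.17 ± 0.05), lost it without any 1 of the 6 libraries (adjusted p from 0.0606 to 0.337). The proteoglycan gene *Lum* fell, at 14.5, 18.2 and 15.6 CPM in the mCherry libraries and at 7.03, 7.86 and 7.63 CPM in the TerminaTOR libraries (log2 -1.10 ± 0.22, adjusted p = 3.70e-04). With rapamycin *Col1a1* and *Col5a2* fell by 0.76 and 0.34 on the log2 scale.

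Of 14 matrix proteases and inhibitors, 3 fell and 1 rose, against 2.57% and 2.35% of all genes. *Adamts1*, a protease of proteoglycans, was at 406, 423 and 396 CPM in the mCherry libraries and at 270.4, 279 and 261 CPM in the TerminaTOR libraries, 1.51-fold lower (adjusted p = 1.27e-09). *Mmp14*, a membrane-bound metalloproteinase, was at 348, 359 and 335 CPM in the mCherry libraries and at 249.6, 261 and 254 CPM in the TerminaTOR libraries, 1.36-fold lower (adjusted p = 6.24e-07), and *Timp3*, an inhibitor of such proteases, at 436, 388 and 443 CPM in the mCherry libraries and at 306, 292 and 300.2 CPM in the TerminaTOR libraries, 1.41-fold lower. *Plau*, the urokinase plasminogen activator, rose, at 35.2, 46.1 and 51.5 CPM in the mCherry libraries and at 80.9, 67.2 and 73.8 CPM in the TerminaTOR libraries (log2 0.74 ± 0.13, adjusted p = 2.84e-05). In all 4 the groups did not overlap. Fibroblast markers went both ways, with *Col1a1*, *Col1a2* and *Thy1* (log2 0.50 ± 0.09) higher and *Lum* and *Vim* (log2 -0.69 ± 0.12, on a retained-intron transcript) lower of 10 tested. Of the cartilage and bone markers, *Sox9*, a chondrocyte transcription factor, was at 423, 460.4 and 485 CPM in the mCherry libraries and at 293, 339 and 331 CPM in the TerminaTOR libraries (log2 -0.51 ± 0.06, adjusted p = 1.48e-08), while *Sp7* and *Ibsp* had no read. *Runx2* fell too (log2 -1.12 ± 0.33), a call lost without TerminaTOR replicate 1, 2 or 3 or mCherry replicate 2 or 3 (adjusted p from 0.0772 to 0.263).

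Other groups held scattered calls, beside 2.35% higher and 2.57% lower of all genes. Of 10 imprinted genes, *Igf2r*, the receptor that clears IGF2 and sorts lysosomal enzymes, was at 1535, 1456 and 1461 CPM in the mCherry libraries and at 1186, 1195 and 1189 CPM in the TerminaTOR libraries (log2 -0.32 ± 0.05, adjusted p = 1.16e-05), and the long noncoding RNA *Meg3* at 589.7, 548 and 528 CPM in the mCherry libraries and at 435, 434 and 422 CPM in the TerminaTOR libraries (log2 -0.37 ± 0.06, adjusted p = 1.47e-05). Both fell without overlap. *Bcl2l11*, which encodes the apoptosis activator BIM, rose from 26.5, 22.9 and 27.7 to 39.0, 39.1 and 42.1 CPM (log2 0.63 ± 0.14), 1 of 18 p53 and apoptosis genes to do so. Of 22 TGF-beta and BMP regulators, 3 rose and 2 fell. *Tgfb3* (0.33 ± 0.08) lost its call without mCherry replicate 1 (adjusted p = 0.0514), *Smad1* (-0.36 ± 0.09) without TerminaTOR replicate 3 (adjusted p = 0.0727), and *Smad5* (-0.35 ± 0.10) without TerminaTOR replicate 2 or 3 or mCherry replicate 3 (adjusted p from 0.0666 to 0.154). *Ppargc1a*, the mitochondrial coactivator PGC1-alpha, fell (-0.74 ± 0.20) and its partner *Yy1* rose (0.24 ± 0.06), calls lost without TerminaTOR replicate 1 or mCherry replicate 2 or 3 (adjusted p from 0.0698 to 0.137) and without mCherry replicate 3 (adjusted p = 0.0534). The clock repressor gene *Cry1*, 1 of 14 clock genes, fell (-0.36 ± 0.10), a call lost without TerminaTOR replicate 3 or mCherry replicate 1 or 2 (adjusted p from 0.0622 to 0.136). Of 12 targets of SRF and MRTF, *Acta2* (0.28 ± 0.08) and *Vcl* (0.22 ± 0.06) rose, calls lost without TerminaTOR replicate 1, 2 or 3 or mCherry replicate 1 or 3 (adjusted p from 0.0817 to 0.169) and without TerminaTOR replicate 1 or 3 or mCherry replicate 1, 2 or 3 (adjusted p from 0.0509 to 0.235). Of 11 YAP and TEAD targets *Crim1* rose (0.33 ± 0.07).

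**Figure D4:**
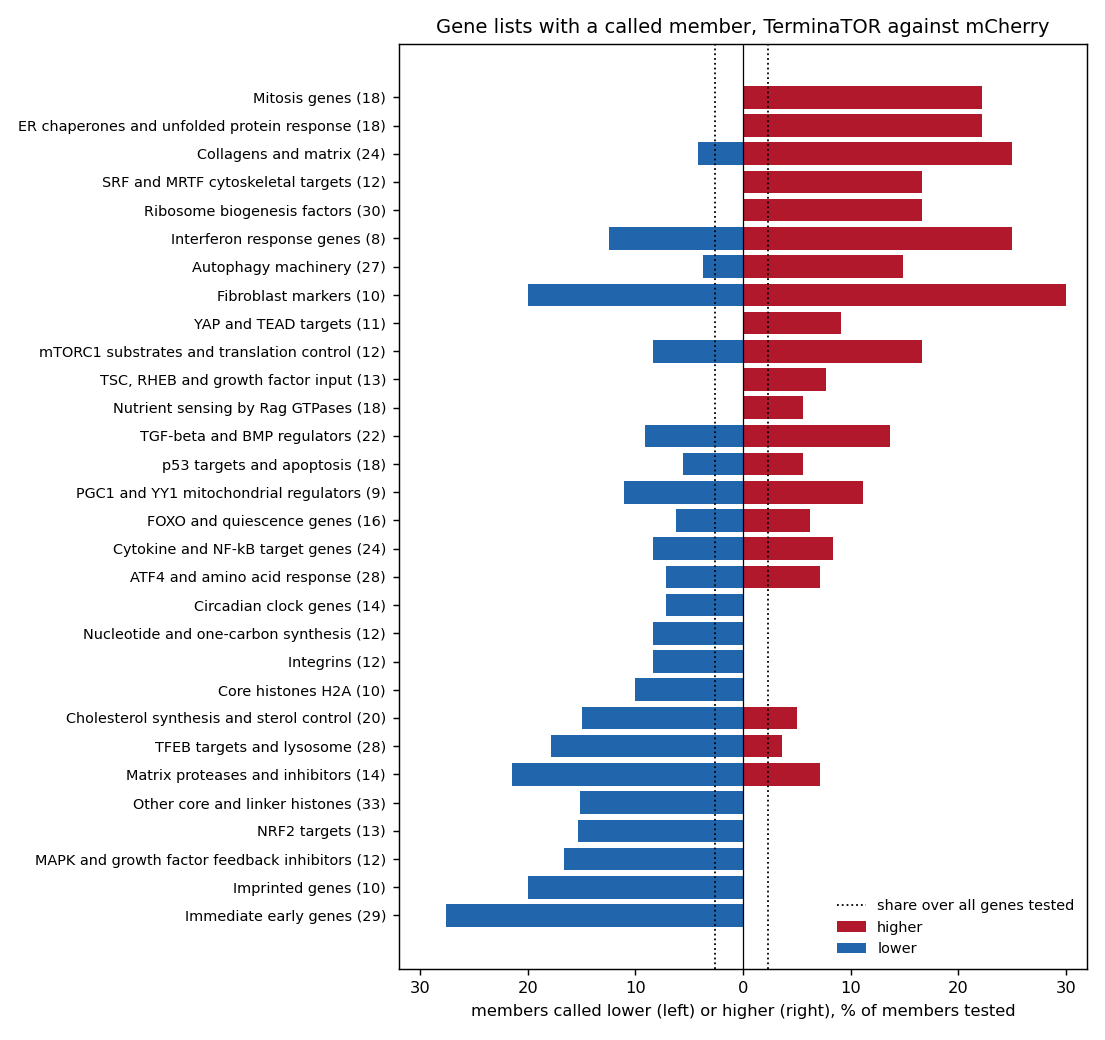
Share of the tested members of each gene list called lower (blue, to the left) or higher (red, to the right) with TerminaTOR, in percent, for the lists of at least 8 tested members that held a call, with the number tested in brackets. Dotted lines mark the shares over all genes tested, 2.35% higher and 2.57% lower. The immediate early genes have the longest bar to the left, 8 of 29, and no bar to the right.

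The calls were set beside those of rapamycin, which share no library. Of the 249 genes that rose with TerminaTOR, 24.1% rose and 38.2% fell with rapamycin, against 16.3% and 16.1% of all genes. Of the 273 that fell, 30.8% rose and 32.2% fell with rapamycin. Conversely, 84 of the 1724 genes that rapamycin raised fell with TerminaTOR and 60 rose (4.87% and 3.48%), and of the 1706 that it lowered 88 fell and 95 rose (5.16% and 5.57%). Of the 323 genes that PDGF raised and rapamycin lowered, 30 rose and 30 fell with TerminaTOR (9.29% each way). All genes tested had 2.57% that fell and 2.35% that rose. The sets had more reads, with medians over the 6 libraries of 835.5, 1473 and 3533, in that order, against 269 for all genes tested. The called genes had more reads than others, and rapamycin was given without cycloheximide. Along the genome, the median log2 change per chromosome ran from -0.08 for chromosome 3 to 0.06 for chromosome 6. Of the chromosomes compared, chromosome 1 had the largest share that rose and chromosome 13 the largest share that fell. On chromosome 1, 32 genes rose and 9 fell of 652 tested (4.91% and 1.38%). On chromosome 13, 4 rose and 24 fell of 441 (0.907% and 5.44%), and 6 of those 24 were the histone genes above. Over all genes, 2.35% rose and 2.57% fell.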

How the data were processed

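RNA was measured by sequencing libraries from 1 µg of total RNA after poly(A) selection, per the labels' protocols. The deposited values are whole-number read counts per mouse transcript, not normalized, and the tools listed in the submitters' processing notes are R 4.1.0, HTSeq 0.9.1 and HISAT2 2.2.1. The notes also name hg38, a human build, while the identifiers are mouse ones, so the mouse build was not given in the sources used here. Strand is not given either, so reads of overlapping antisense genes cannot be told apart.

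Of 142446 transcripts, 141536 matched GENCODE M21 (GRCm38) and were summed to 55266 genes, and the 910 others, with 0.0309% of counts, were left out. All 15 libraries entered 1 fit in edgeR 4.0.16 (R 4.3.3), with TMM scaling, filterByExpr, the robust quasi-likelihood F test (10 residual degrees of freedom) and Benjamini-Hochberg adjustment over 10603 genes, called at 0.05. SE was taken from the test as the size of the log2 change over the root of F, and CPM are TMM-normalized. Floors (3 counts) cover counting error only, since the reads carry no molecular identifiers. The fit was tested on simulated counts.

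The genes named are the 10 largest rises and the 10 largest falls, taken from called genes whose groups did not overlap and whose log2 CPM averaged 1 or more, predicted genes left out. To these were added up to 3 called members per list, the tested mTORC1 subunits, and genes without reads in a group. Other called list members, the remaining immediate early genes, the KLF family, the smallest p-values and the promoters were added after the values were seen. A called list member that the rule would name is not reported here. The comparison, the members and the 51 lists were chosen with earlier results of these data known. Same-numbered libraries of the 2 groups were not paired by the labels, and their deviations correlated at 0.0238, 0.0047 and 0.0138. Promoters come from RefSeq (GRCm38.p6). Alternatives were DESeq2 1.42.0, limma-voom (limma 3.58.1), other scalings, no filter, the 6 libraries alone, transcripts as deposited, a replicate block and each library left out.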

Additional observations from a re-analysis of the deposited data

How the results depend on the processing

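Against 522 called (249 higher, 273 lower), leaving out 1 library gave 308 to 367 called, 141 to 172 higher and 154 to 195 lower. Without a filter 358 were called, 189 higher and 169 lower. With the 6 libraries compared alone, 804 were called, 397 higher and 407 lower, and 509 of the 522 were among them. DESeq2 called 546 (488 of the 522; it gave 28 of them no adjusted p), limma-voom 576 (474 shared), scaling by relative log expression 505, by library size 531, and transcripts as deposited 473. With the replicate number as a block, 563 genes were called, 275 higher and 288 lower, 518 of the 522 among them. The labels do not pair the samples, and TerminaTOR replicate 2 correlated more with mCherry replicate 1 (0.0098) than with its own number. No gene among the 522 changed sign in the gene-level settings. Of the named genes, the calls lost numbered 37 without a filter, 36 to 44 with 1 library left out, 20 with transcripts as deposited, 14 with limma-voom, 11 with library-size scaling, 4 with relative log expression, 2 with the block, 1 with DESeq2 and 1 with the 6 libraries alone. The cause of these losses was not tested. Fits with 1 library left out also had fewer samples, and the fit without a filter tested 28380 genes. Depth limits what could be seen, since the median gene tested had 269 reads over the 6 libraries.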
